A study of Arabidopsis thaliana with 83 samples.

Results

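STZ, also called ZAT10 (locus AT1G27730), encodes a C2H2 zinc-finger protein that acts as a transcriptional repressor in Arabidopsis thaliana. It was chosen by its level at 0 h and the direction of its response in each accession, so its own values are given as a description and carry no test. The gene is measured by 1 probe set listed with STZ alone, and no probe set lists it together with other genes. It is 1 of 13350 genes that have a probe set of their own in the annotation used here.

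Repressors of this family bind DNA through zinc fingers and carry an EAR motif, a short stretch through which plant repressors recruit corepressors of the TOPLESS family. The STZ transcript is known to accumulate quickly after salt, cold, drought, wounding and strong light, and the protein is a known target of stress-activated MAP kinases. The gene was first named for the salt tolerance it gave to yeast.

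Whole plants of 7 natural accessions (Bay-0, Sha, Bl-1, C24, Fei-0, Bur-0 and Col-0) were profiled on 83 Affymetrix ATH1 arrays at 0 h, 30 min, 1 h and 3 h in a study of natural variation in auxin response. All were grown for 7 days in shaken liquid ATS medium at 22 °C in constant light, after 5 days of stratification, with the light filtered yellow for the last 24 h to protect the auxin IAA. No transgene or mutation is named for any group, and each accession is its own genotype. There were 28 groups of 3 arrays, or 2 arrays for the 3 h group of Fei-0. No auxin dose and no mock treatment is given for the later samples in the labels, so handling and auxin cannot be told apart in any change from 0 h. Bay-0 was taken from the ecotype label, although another label places these plants in a recombinant inbred line population. The titles are numbered accession by accession and time by time, so processing order cannot be told apart from either. Replicates are not stated to be separate cultures, so the spread between them may be technical.

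Signals are on the deposited linear scale, on which the median of an array lay between 38 and 43.2, and r between replicate arrays, over all probe sets, was 0.964 to 0.991. The number of arrays limits the precision. Changes are differences of log2(signal + 16) between the later arrays and the 0 h arrays of the same accession, with the standard error (SE) of a model fitted in limma over all probe sets. The SE of an STZ change was 0.15, and 0.17 for Fei-0 at 3 h. The added 16 understates changes where signals are low, as for STZ in C24 and Fei-0, and largely sets their size where a group lies near or below 16, as for LBD29 at 0 h. In whole plants, fewer cells of a type and less RNA per cell cannot be told apart. How well probes match the sequence of each accession was not checked. Signal levels compared between accessions may therefore differ without a difference in RNA. The auxin reference genes moved the same way in all 7 accessions: at 1 h the log2 change ran between 4.62 and 6.23 for GH3.3, which encodes an auxin-conjugating enzyme, between 2.32 and 3.34 for the homeobox gene HAT2, and between 3.23 and 3.89 for LBD29, a lateral organ boundaries domain gene.

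STZ signal was below its 0 h level at every later time in Bay-0 and Sha and above it at every later time in Bl-1, C24, Fei-0, Bur-0 and Col-0. In no accession did the arrays of a later time overlap those of 0 h, so at each time 5 accessions lay above and 2 below. The log2 changes spanned 2.76 between the accessions at 30 min, 3.44 at 1 h and 3.10 at 3 h. These spans are what the gene was chosen for, and the difference between accessions was not tested.

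In Bay-0, STZ had signals of 208, 259 and 339 at 0 h and of 113, 162 and 129 at 30 min. It had 92.9, 90.5 and 78.5 at 1 h, then 112, 97.6 and 105 at 3 h. All 9 later arrays lay below the lowest 0 h array, and the 1 h arrays lay below those of both 30 min and 3 h. The mean was 87.3 ± 7.71 at 1 h, against 269 ± 66.4 at 0 h (SD, n = 3 each). The log2 changes were -0.90 at 30 min, -1.44 at 1 h and -1.21 at 3 h.

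In Sha, STZ had signals of 256, 319 and 118 at 0 h, and of 84.1, 90.0 and 97.1 at 30 min. It had 89.8, 78.8 and 81.2 at 1 h, then 89.4, 106 and 86.2 at 3 h. The later arrays all lay below those of 0 h, but the 0 h arrays were far apart, and the closest of them, replicate 3, was just above the highest array of 3 h. The mean was 83.3 ± 5.81 at 1 h, against 231 ± 103 at 0 h (SD, n = 3 each). The log2 changes were -1.11 at 30 min, -1.21 at 1 h and -1.07 at 3 h. They depend on which 0 h arrays are used: without replicate 3 of 0 h they were -1.51, -1.61 and -1.46 in order of time, and without replicate 2 of 0 h they were -0.84, -0.94 and -0.80.

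**Figure D1:**
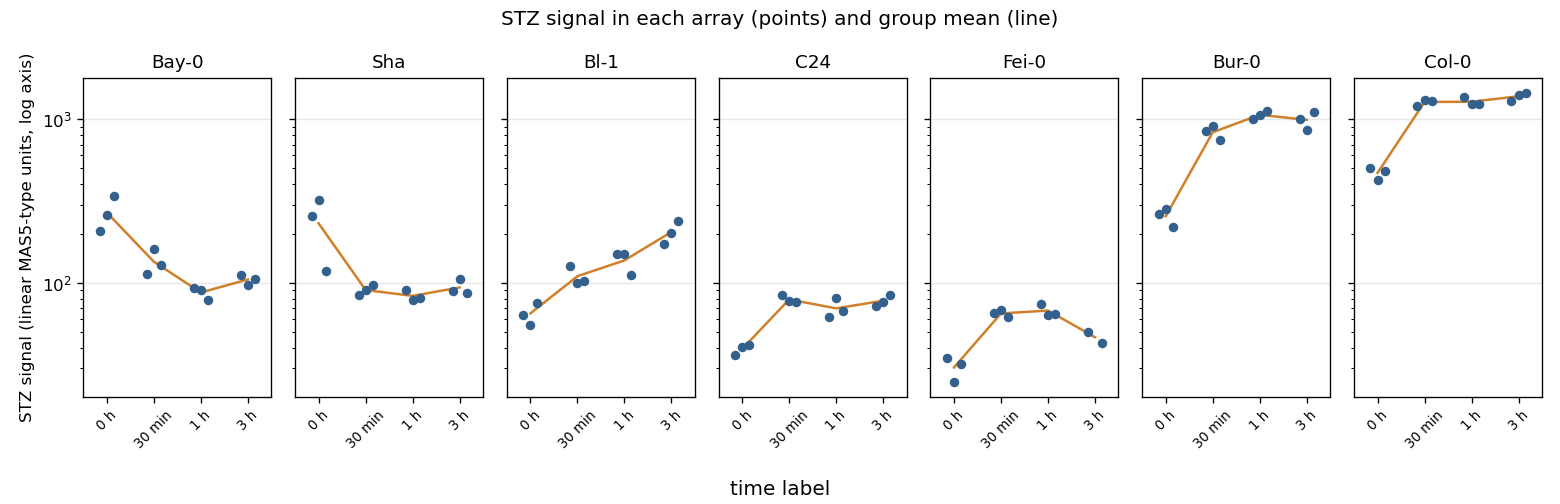
STZ signal in each array (points) and the mean of each group (line) against the time label, in 7 panels, 1 per accession, with signal on a log axis. Later arrays sit below 0 h in Bay-0 and Sha and above it in the other accessions, and the 0 h arrays of Sha are spread between 118 and 319.

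In Col-0, STZ had signals of 505, 423 and 481 at 0 h and of 1207, 1314 and 1300 at 30 min. It had 1363, 1230 and 1241 at 1 h, then 1293, 1402 and 1448 at 3 h. The later arrays overlapped one another from time to time and all lay far above 0 h. The log2 changes were 1.41 at 30 min, 1.42 at 1 h and 1.53 at 3 h. At 1 h the mean was 1278 ± 73.5, against 470 ± 41.8 at 0 h (SD, n = 3 each).

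In Bur-0, STZ had signals of 262, 283 and 221 at 0 h and of 842, 907 and 747 at 30 min. It had 1007, 1061 and 1122 at 1 h, then 1005, 857 and 1110 at 3 h. The arrays of 1 h lay above those of 30 min without overlap, and those of 3 h overlapped those of 1 h. The log2 changes, the highest among the accessions at each time, were 1.65 at 30 min, 2.00 at 1 h and 1.89 at 3 h. At 1 h the mean was 1063 ± 57.3, against 255 ± 31.9 at 0 h (SD, n = 3 each).

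In Bl-1, STZ had signals of 64.0, 55.5 and 75.7 at 0 h and of 127, 99.9 and 103 at 30 min. It had 149, 150 and 112 at 1 h, then 173, 202 and 238 at 3 h. The 3 h arrays lay above those of 1 h without overlap, by 0.53 on the log2 scale. The log2 changes from 0 h were 0.63 at 30 min, 0.92 at 1 h and 1.44 at 3 h.

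In C24, STZ had signals of 36.5, 40.3 and 41.6 at 0 h and of 83.7, 77.7 and 75.9 at 30 min. It had 61.4, 80.9 and 67.2 at 1 h, then 72.7, 76.5 and 84.1 at 3 h. The later times overlapped one another. The log2 changes were 0.78 at 30 min, 0.62 at 1 h and 0.76 at 3 h.

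In Fei-0, STZ had signals of 34.6, 24.6 and 32.0 at 0 h and of 65.5, 68.0 and 61.4 at 30 min. It had 74.5, 64.0 and 64.7 at 1 h, then 50.0 and 43.1 at 3 h. The arrays of 3 h lay below those of 1 h without overlap and above those of 0 h. The log2 changes were 0.81 at 30 min, 0.86 at 1 h and 0.44 at 3 h.

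**Figure D2:**
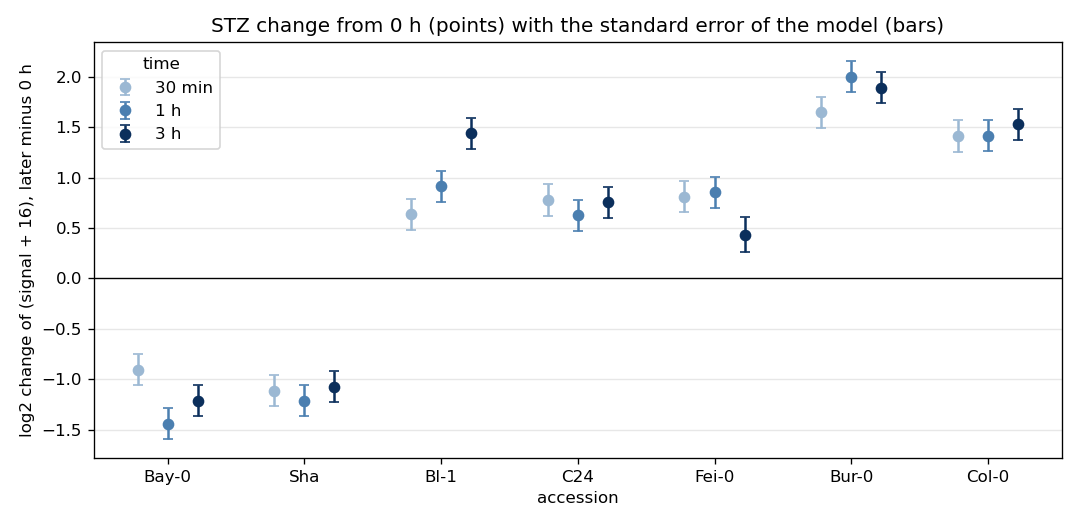
Log2 change of STZ from 0 h in each accession at 30 min, 1 h and 3 h (points) with the standard error of the model (bars). Bay-0 and Sha lie below 0 at every time, down to -1.44, and the other accessions lie above it, up to 2.00 in Bur-0 at 1 h.

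Accessions with overlapping levels at 0 h changed in opposite directions. Mean signals at 0 h were 470 in Col-0, 269 in Bay-0, 255 in Bur-0, 231 in Sha, 65.1 in Bl-1, 39.5 in C24 and 30.4 in Fei-0. Arrays of Bay-0 and Bur-0 overlapped, as did those of Bur-0 and Sha, whereas the other neighbours in this order did not. Bay-0, Bur-0 and Sha thus had overlapping levels at 0 h, and at 1 h their means were 87.3, 1063 and 83.3. The highest mean signal was 15.45 times the lowest at 0 h, 19.6 times at 30 min, 18.87 times at 1 h and 29.65 times at 3 h. These ratios rest on 1 probe set, whose match to each accession was not checked. At 1 h, Col-0 was followed by Bur-0 and Bl-1, and arrays of Bay-0 overlapped those of Sha, those of Sha overlapped C24, and those of C24 overlapped Fei-0. The 3'/5' signal ratios of the AFFX-Athal control probe sets, a possible sign of RNA quality, also differed between accessions. How well the control probes match each accession was not checked. At 0 h the GAPDH ratio was 2.92 ± 0.189 in Col-0, 1.64 ± 0.183 in Bay-0, 1.70 ± 0.125 in Bur-0 and 1.43 ± 0.203 in Sha, and the actin ratio was 105 ± 43.4, 3.51 ± 0.134, 15.95 ± 1.93 and 13.4 ± 4.78 in the same order (SD, n = 3 each). In Fei-0, the accession with the lowest STZ mean, they were 1.89 ± 0.155 and 22.8 ± 3.93. Their part in the STZ levels was not tested. Within an array, the mean percentile of STZ among all probe sets at 0 h was 93.8 in Col-0 and 44.5 in Fei-0.

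Few other probe sets were called in these 4 accessions in the directions of STZ, where called means an adjusted p under 0.05 in limma and a change of at least 2-fold. Leaving STZ itself out, since it was chosen by these directions, 0 of the other probe sets tested at 30 min and at 1 h, and 1 at 3 h (AT3G10930), were called higher in Bur-0 and Col-0 and lower in Bay-0 and Sha. In all, 15922 probe sets were tested. At 30 min STZ did not meet this pattern either, as its change in Bay-0 (-0.90) was under 2-fold. The count was set up after the data were seen, and it was not stable: a pseudocount of 1 gave 2 at 1 h and 11 at 3 h, and a pseudocount of 64 gave 0 at both. With 64, STZ itself did not meet the pattern at 1 h or 3 h.

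The genes whose pattern was most like that of STZ were ranked by Pearson's r over the 28 group means of log2(signal + 16). The means share accessions and arrays and r is given as a description. Only probe sets listed with 1 gene were ranked, and 2 others had a higher r than any of these. The highest ranked r was 0.96 for AT1G76600, followed by AT4G27654, AT4G27652 and AT5G17350 at 0.95 each. ORA47, which encodes an AP2/ERF transcription factor linked to jasmonate synthesis, also had 0.95. AT3G02840 (0.95), AT4G27657 (0.94), AT1G72950 (0.94), AT4G29780 (0.94) and AT1G18740 (0.93) completed the 10. Apart from STZ, 44 probe sets had r above 0.9, 18 of them listed with 1 gene, and the median r of the 15922 was -0.09. After the mean of each accession was taken out, r of these 10 genes with STZ lay between 0.67 for AT1G18740 and 0.85 for ORA47.

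These 10 genes were all above 0 h in Bur-0 and Col-0 at every later time. At 1 h the median log2 change of the 10 was 1.39 in Bur-0 and 1.33 in Col-0, where the median of all probe sets was 0.00 and -0.05. In Bay-0 at 1 h, 8 of the 10 were below 0 h with a median of -0.25, and in Sha 9 of 10 were below with a median of -0.38. At 3 h, 9 of 10 were below 0 h in each, with medians of -0.56 in Bay-0 and -0.65 in Sha. At 30 min STZ differed from them in Bay-0, where 7 of the 10 were above 0 h with a median of 0.16, beside -0.90 for STZ. In Sha at 30 min 8 of the 10 were below 0 h, with a median of -0.09, beside -1.11 for STZ. In Fei-0 at 3 h 6 of the 10 were below 0 h, with a median of -0.09, while STZ was above it by 0.44. AT4G27657 had means above 16 only in Bur-0 and Col-0, with 7.4 or less in Bay-0 and 2.1 or less in Sha. AT4G27654, ORA47 and AT1G72950 averaged at most 22.8 in Bay-0 and Sha. Counts and medians outside Bur-0 and Col-0 thus include signals near or below the added 16, where a change says little. The choice of these genes by likeness fixes much of this, and no test was made.

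AT4G29780 shows how far a member of the group can part from STZ. Its mean signal in Bay-0 was 49.3 ± 7.21 at 0 h, 118 ± 14.4 at 30 min, 46.1 ± 2.20 at 1 h and 26.4 ± 3.72 at 3 h (SD, n = 3 each). In Bur-0 it averaged 446 ± 8.43 at 1 h, against 73.0 ± 18.1 at 0 h. In Bay-0 it was thus high at 30 min, when STZ was already low, and both were below 0 h by 3 h. ORA47 in Col-0 averaged 522 ± 73.1 at 1 h, against 154 ± 3.65 at 0 h, and in Bay-0 7.0 ± 3.54 at 1 h, against 22.8 ± 2.35 at 0 h (SD, n = 3 each).

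**Figure D3:**
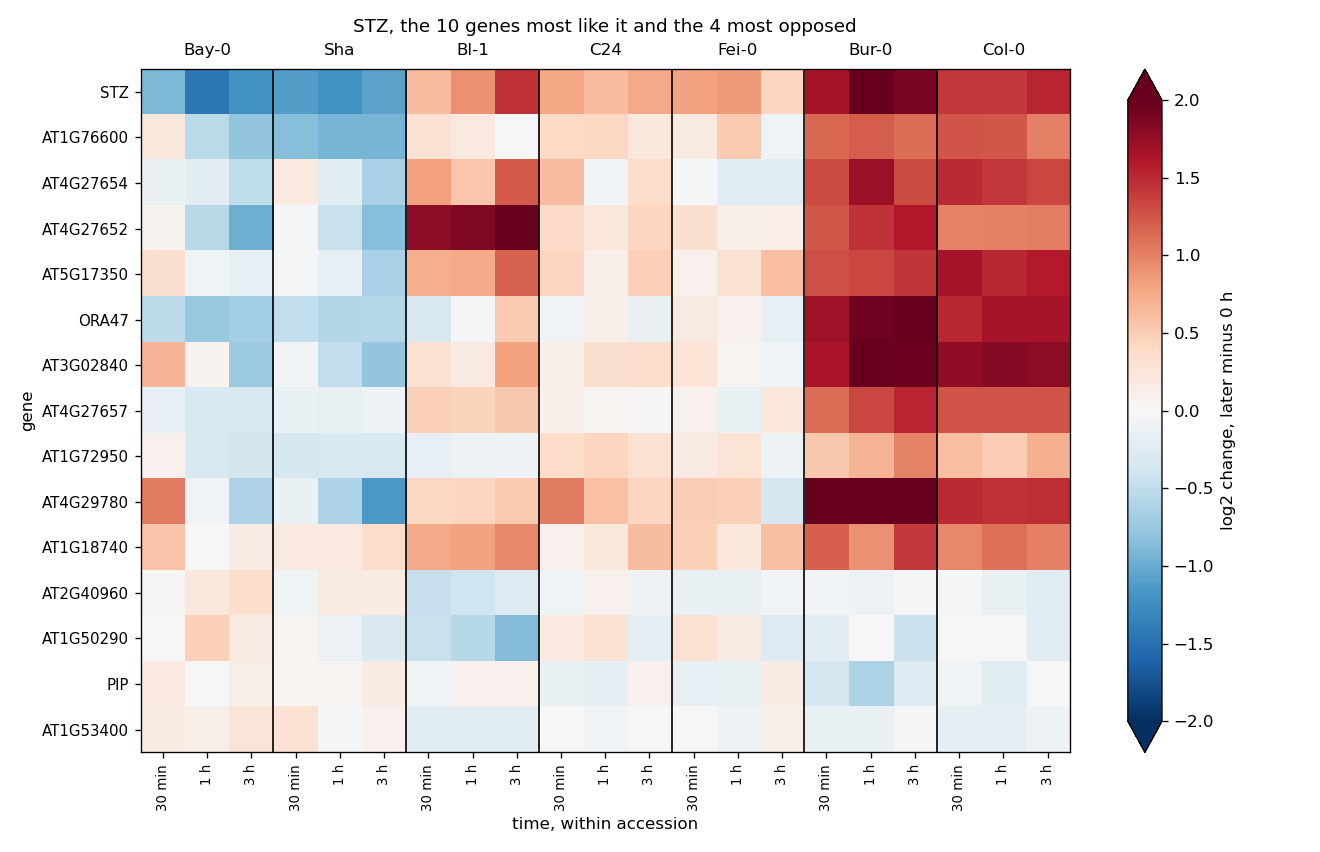
Log2 change from 0 h (colour) of STZ, the 10 genes most like it and the 4 most opposed (from top to bottom) in each accession and at each later time. The 10 most alike genes are above 0 h in Bur-0 and Col-0 throughout; in Bay-0 7 of them are above it at 30 min and 9 below it at 3 h. Colours beyond 2 in either direction are drawn at the end of the scale.

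The Sha replicate 3 array of 0 h that was low for STZ was also low for the genes like it. It was the lowest of the 3 arrays for 9 of the 10, beside 33.0% of all 15922 probe sets. AT4G29780, for instance, had 72.1, 116 and 34.2 in replicates 1, 2 and 3. The part of this array in the Sha changes of these 10 genes was not tested.

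At the other end stood AT2G40960 (r = -0.91), AT1G50290 (-0.89), PIP, which encodes a proline iminopeptidase (-0.85), and AT1G53400 (-0.83). With accession means taken out, r of these 4 genes lay between -0.58 and -0.35. AT1G50290 had mean signals of 7.8 ± 5.48 in Bur-0 and 14.4 ± 3.04 in Col-0 at 1 h, beside 209 ± 28.2 in Bay-0 (SD, n = 3 each). At 0 h they were 7.5 ± 1.34, 14.9 ± 5.16 and 146 ± 20.1 in the same order.

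Of the genes around STZ on the chromosome, in the order of the RefSeq table, 1 of the nearest 6 was measured. AT1G27700 had r = 0.18 with STZ, and its responses at 1 h spanned 0.26 between accessions.

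Genes of stress pathways around STZ were taken from 7 lists, with 99 members in all, of which 14 had a probe set listed alone and 11 passed the filter on low values (AT3G53600, CML37 and COR15A did not). A gene that passed through the groups in which it was high had to differ between groups, so the counts below describe these 11 and support nothing about the lists. None of the corepressor, MAP kinase or jasmonate members was among them, so no value can be given for those pathways. Responses of 9 of the 11 genes differed between accessions at 30 min, where 9.14% of all probe sets did, of 8 at 1 h (7.33%), and of 9 at 3 h (11.2%), by the moderated F test of limma with a range of at least 1. The median range was 1.26 for the 11 genes and 0.50 for all probe sets at 1 h. Signal levels at 0 h differed for 7 of the 11, beside 23.1% of all. Of 77 pairs of gene and accession, 10 were called higher than at 0 h at 30 min (1.07% of all pairs), 11 at 1 h (1.22%) and 13 at 3 h (1.41%). Called lower were 7 at 30 min (0.351%), 6 at 1 h (0.45%) and 7 at 3 h (1.19%). These counts depend on the pseudocount. With 64 in place of 16, those higher were 4, 5 and 6 in order of time and those lower 1 each, and with 1 those lower at 1 h were 12. The calls at 1 h that remained with 64 were WRKY53 and PUB23 in Bur-0 and Col-0, LTI30 in Bl-1 and CML38 in Sha.

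By accession at 1 h, Bur-0 had 4 of the 11 higher (1.9% of all probe sets) and 1 lower (1.02%). Col-0 had 4 higher (1.53%) and 0 lower (0.258%). Bay-0 had 0 higher (1.15%) and 2 lower (0.245%), and Sha had 0 higher (1.26%) and 1 lower (0.433%). Bl-1 had 1 higher (0.904%) and 2 lower (0.484%). C24 had 1 higher (1.11%) and 0 lower (0.471%), and Fei-0 likewise 1 (0.697%) and 0 (0.232%).

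Touch, wound and calcium genes held the 3 list genes with the highest r with STZ. AT1G76640, which the list holds as a calmodulin-like gene, was lower at 1 h in Bay-0 and higher in Bur-0 and Col-0. Its mean signal in Bay-0 was 10.2 ± 8.64 at 1 h, against 71.6 ± 12.0 at 0 h. In Bur-0 it was 49.8 ± 4.51 at 1 h, against 2.23 ± 2.40 at 0 h, and in Col-0 83.0 ± 1.65 at 1 h, against 27.4 ± 4.33 at 0 h (SD, n = 3 each). In Bl-1, C24, Fei-0 and Sha its means were 11.1 or less at every time, so it passed the filter through the other accessions, and no p is given. The log2 change at 1 h, set largely by the added constant, was -1.79 in Bay-0, 1.86 in Bur-0 and 1.20 in Col-0. It was -3.20, 4.21 and 1.58 with a pseudocount of 1, where the call in Col-0 was lost, and -0.87, 0.78 and 0.69 with 64, where all 3 calls were lost.

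CML38, another calmodulin-like gene, was called lower at 1 h in the accessions in which STZ was lower and also in Bl-1, in which STZ was higher. Its log2 changes at 1 h were -1.51 in Bay-0, -2.10 in Sha and -1.34 in Bl-1, with limma adjusted p of 7.8e-09, 7.14e-14 and 2.42e-07. In Sha it averaged 5.71 ± 5.01 at 1 h, against 77.0 ± 22.5 at 0 h (SD, n = 3 each), so that the size of this change also depends on the pseudocount (-3.84 with 1 and -1.01 with 64). In Bur-0 it averaged 154 ± 47.8 at 1 h, against 171 ± 22.6 at 0 h, and was not called. In Col-0 it was above 0 h by 0.47 and not called. In C24 and Fei-0, where STZ was higher, it was below 0 h, short of 2-fold (-0.78 and -0.63, limma adjusted p = 0.00297 and 0.0322). With a pseudocount of 64, its changes in Bay-0 and Bl-1 were -0.79 and -0.77, and both calls were lost.

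PUB22 and PUB23 encode U-box ubiquitin ligases that dampen immune signalling. PUB22 averaged 138 ± 7.73 at 1 h in Bur-0, against 46.2 ± 1.86 at 0 h, and 203 ± 22.2 at 1 h in Col-0, against 79.3 ± 20.1 at 0 h. It rose by 1.30 in Bur-0 and 1.22 in Col-0 at 1 h (limma adjusted p = 7.35e-09 and 9.29e-08) and was not called in the other accessions. PUB23 rose by 1.51 in Bur-0 and 1.52 in Col-0 (adjusted p = 2.85e-16 and 3.33e-16 in limma). In every other accession it was also above 0 h at 1 h, short of 2-fold, by 0.57 in Bl-1 to 0.85 in Sha. The limma adjusted p there was 0.000619 or less. Its responses at 1 h were not called different between accessions only because the range, 0.95, was under 1 (adjusted p = 2.71e-06, F test of limma). In Bay-0, PUB23 averaged 166 ± 14.7 at 1 h, against 87.1 ± 2.45 at 0 h, above 0 h where STZ was below it. Over the 28 group means, r with STZ was 0.88 for PUB22, 0.87 for CML38, 0.80 for AT1G76640 and 0.77 for PUB23. PUB24, the fifth measured gene of this list and a relative of PUB22 and PUB23, had an r of 0.17 and was called in no accession at 1 h, with log2 changes between -0.24 in Bl-1 and 0.70 in C24.

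**Figure D4:**
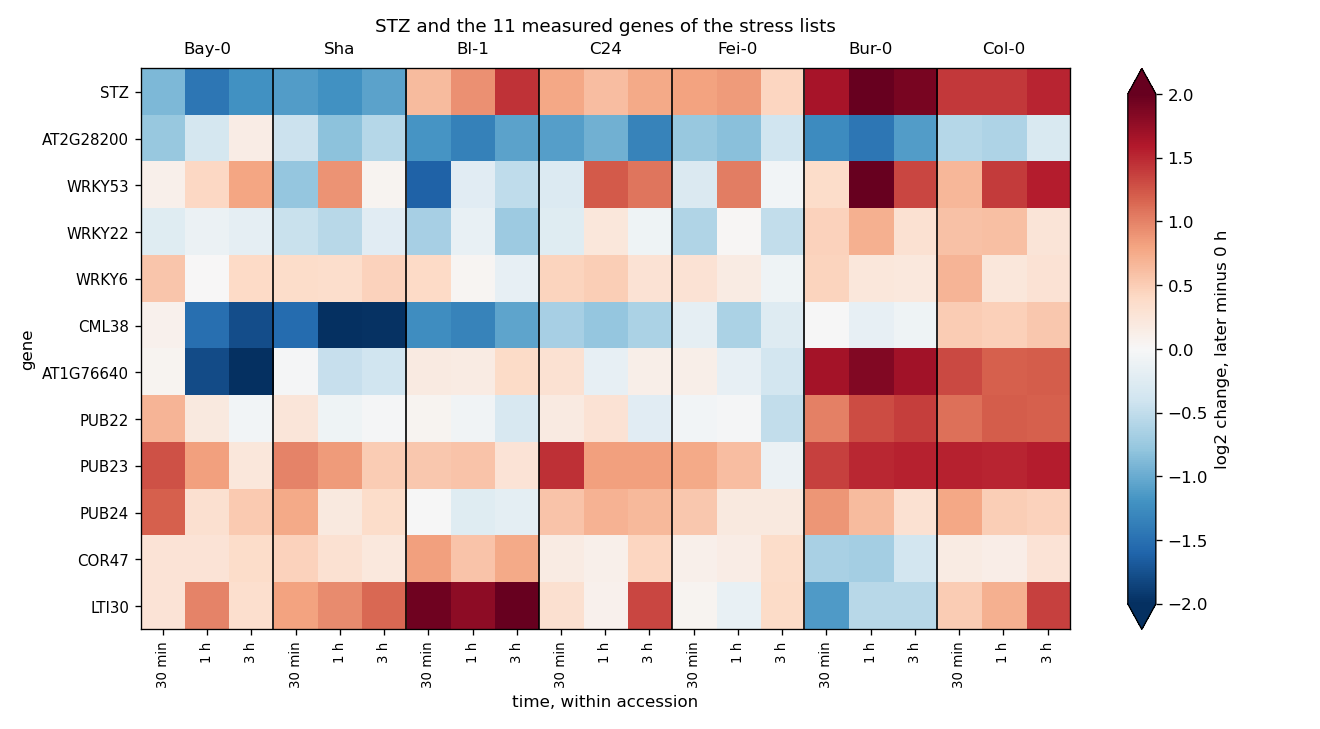
Log2 change from 0 h (colour) of STZ and the 11 measured genes of the stress lists (from top to bottom) in each accession and at each later time. PUB23 is above 0 h at 1 h in every accession, most in Bur-0 (1.51) and Col-0 (1.52), and CML38 is below it in Sha (-2.10 at 1 h). Colours beyond 2 in either direction are drawn at the end of the scale.

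Among the transcription factors, WRKY53, a regulator of leaf senescence, rose at 1 h in Bur-0 by 2.18, in Col-0 by 1.40, in C24 by 1.23 and in Fei-0 by 1.02 (limma adjusted p = 7.73e-19, 6.8e-11, 4.54e-09 and 1.09e-06). The Fei-0 change was 0.90 without replicate 1 of 1 h. In Bay-0, WRKY53 averaged 254 ± 29.3 at 1 h, against 187 ± 23.4 at 0 h. In Sha, where STZ was lower, WRKY53 was above 0 h by 0.90, short of 2-fold (limma adjusted p = 1.15e-05). In Bl-1, where STZ was higher, its log2 change was -0.23 (limma adjusted p = 0.431). WRKY22, a factor of the flagellin response, was called in no accession at 1 h, but its responses differed between accessions with a range of 1.25 (adjusted p = 6.46e-06, F test of limma). Its r with STZ was 0.78, and that of WRKY53 was 0.36. WRKY6 was not called in any of the F tests.

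AT2G28200, the measured member of the C2H2 list apart from STZ, did not share its pattern (r = -0.19). At 1 h it fell by 1.44 in Bur-0 and by 1.36 in Bl-1 (limma adjusted p = 9.69e-13 and 1.99e-11). In Bur-0 it averaged 31.7 ± 3.96 at 1 h, against 114 ± 15.4 at 0 h (SD, n = 3 each). In the other 5 accessions it was also below 0 h at 1 h, with log2 changes between -0.97 in C24 and -0.35 in Bay-0 that did not reach 2-fold, whether STZ was higher there or lower. The log2 change was -0.81 in Sha.

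Of the cold and salt genes, the dehydrin genes COR47 and LTI30 had r of -0.20 and -0.02 with STZ. LTI30 rose by 1.79 in Bl-1 at 1 h (limma adjusted p = 1.93e-12), with 305 ± 66.7 at 1 h, against 75.6 ± 5.62 at 0 h (SD, n = 3 each). Short of 2-fold, it was also above 0 h in Bay-0 (0.99) and Sha (0.95), where STZ was lower (limma adjusted p = 3.25e-05 and 5.68e-05). In Bur-0, where STZ was higher, it was below 0 h (-0.55, limma adjusted p = 0.0189). The log2 change was 0.71 in Col-0, 0.09 in C24 and -0.14 in Fei-0. COR47 was called in no accession at 1 h, and its range over accessions was 1.26 (adjusted p = 1.83e-07, F test of limma).

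Shoot markers were lower in the accessions in which STZ was lower after 0 h. Of 4 shoot and 4 root-hair markers, 2 of each were measured. The summed signal of the shoot markers LHCB4.2 and RCA at 0 h averaged 3224 in Bay-0 and 2915 in Sha, and 8379 in Bur-0, 6685 in Col-0, 6880 in Bl-1, 5757 in Fei-0 and 5411 in C24. Arrays at 0 h ranged between 2893 and 3434 in Bay-0 and between 2668 and 3362 in Sha, and the lowest array of the other accessions, in C24, had 5171. At 1 h the sum was 3965 in Bay-0, 2654 in Sha, 5929 in Bur-0 and 5459 in Col-0. The summed root-hair signal at 0 h averaged between 32.67 in Bl-1 and 74.05 in Bay-0. At 3 h its mean was above that of 0 h in every accession, up to 322 in Sha, against 66.7 at 0 h. The markers were themselves called at 3 h: EXPA7 higher in Bay-0 (1.22), Col-0 (1.10) and Sha (2.22), EXPA18 higher in Sha (1.37), and LHCB4.2 lower in Bur-0 (-1.51). The sums after 0 h thus need not follow tissue make-up. Accession means of EXPA7 at 0 h ran between 14.3 and 37.1, and those of EXPA18 between 18.4 and 36.9, below the lowest array median of 38. The part of tissue make-up in the STZ values was not tested.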

How the data were processed

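The authors deposited linear signal intensity for each probe set. MAS5 and GCOS are named, per the submitters' processing notes, without versions. Every array had a trimmed mean of 100. Of 22810 probe sets, 64 controls were left out, as were the 30% with the lowest mean (6824), which left 15922. Genes were named only from probe sets listed with 1 gene (13513; 503 listed several and 8730 none). Here log2(signal + 16) was modelled with limma 3.58.1 under R 4.3.3, after reading with data.table version 1.17.8. The model took each of the 28 groups as a level, over all 83 arrays, with a trended prior, 55 residual and 13.2 prior degrees of freedom. Contrasts were each later time against 0 h within an accession, and moderated F tests of the difference in response and of the 0 h level. Tests are two-sided for contrasts, with Benjamini-Hochberg adjustment over all 15922 probe sets. Calls needed an adjusted p under 0.05 and at least 2-fold, or for F tests a range of at least 1 (log2). The fit was tested on simulated data.

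STZ and the lists were chosen with earlier results of these data known. Named genes were STZ, the 10 genes most and the 4 least like it, the C2H2 members, up to 5 members per other list with the smallest F test p at 1 h (or the 2 with the highest signal), and GH3.3, HAT2 and LBD29. PUB23, PUB24 and AT3G10930 were named after their values were seen. Alternatives were the pseudocount (1 or 64), quantile normalization, no filter, no minimum fold, a replicate block, each accession fitted alone, other measures of likeness and leaving out each array.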

Additional observations from a re-analysis of the deposited data

Results flagged for a closer look

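The log2 changes of STZ spanned 2.76 over the accessions at 30 min, 3.44 at 1 h and 3.10 at 3 h, with every later array of Bay-0 and Sha below its 0 h arrays and every later array of the other accessions above. This difference was not tested, since STZ was chosen for it.

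Other genes of the stress lists were picked out because their responses differed between accessions in the moderated F test of limma. At 30 min the ranges of log2 change were 2.28 for WRKY53, 1.25 for WRKY22, 2.06 for CML38, 1.69 for AT1G76640, 1.16 for PUB22, 1.00 for PUB23, 1.21 for PUB24, 1.48 for COR47 and 3.08 for LTI30. At 1 h they were 1.10 for AT2G28200, 2.41 for WRKY53, 1.25 for WRKY22, 2.57 for CML38, 3.65 for AT1G76640, 1.39 for PUB22, 1.26 for COR47 and 2.34 for LTI30. At 3 h they were 1.49 for AT2G28200, 2.08 for WRKY53, 1.03 for WRKY22, 2.52 for CML38, 4.02 for AT1G76640, 1.88 for PUB22, 1.68 for PUB23, 1.11 for COR47 and 2.79 for LTI30. Some lie close to the threshold of 1: leaving out 1 array brought PUB23 at 30 min down to 0.95, WRKY22 at 3 h to 0.97 and COR47 at 3 h to 0.98. The ranges of AT1G76640 rest on signals near or below the added 16 and on a gene that passed the filter through Bay-0, Bur-0 and Col-0.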

How the results depend on the processing

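No STZ change reversed under any alternative run. Since no later array of STZ overlapped its 0 h arrays, another pseudocount or a left-out array could not have reversed one. For those runs the sign was fixed in advance and adds no support. With a pseudocount of 1, STZ changes were 0.99 (C24, 30 min), 0.96 (C24, 3 h), 1.08 (Fei-0, 30 min) and 1.14 (Fei-0, 1 h), the span at 1 h was 3.65, and 12 list pairs were called lower at 1 h. With a pseudocount of 64, changes in order of time were, for Bl-1, 0.43, 0.64 and 1.05, for C24, 0.47, 0.37 and 0.45, for Fei-0, 0.45, 0.48 and 0.23, and for Sha, -0.87, -0.93 and -0.84, with -1.12 at 1 h and -0.96 at 3 h in Bay-0. The spans were then 2.36, 2.94 and 2.68, list pairs called higher 4, 5 and 6 and lower 1, 1 and 1, and list genes that differed 4 at 30 min and 5 at 1 h. With no minimum fold, list pairs called higher were 28, 27 and 25 and lower 17, 15 and 14. Of the 10 genes most like STZ, 5 remained by Spearman's rho and 6 with accession means taken out.

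The count of probe sets called higher in Bur-0 and Col-0 and lower in Bay-0 and Sha was set up after seeing the data. Here it includes STZ, where called, which was chosen by these directions. It was 3 (1 h) and 12 (3 h) with a pseudocount of 1, 0 and 0 with 64, and 2 at 1 h after quantile normalization. Leaving out 1 array gave 0 to 2 at 1 h and at 3 h, with 0 at both without replicate 2 of Sha at 0 h.

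Leaving out 1 array, the lowest and highest Sha changes were -1.51 and -0.84 (30 min), -1.61 and -0.94 (1 h), -1.46 and -0.80 (3 h), without 0 h replicate 3 and 2 in that order. The spans ran between 2.55 and 3.15 (30 min) and between 2.96 and 3.36 (3 h). The labels' replicate numbers did not pair arrays: deviations of same-numbered arrays correlated at -0.348 to 0.255 over 123 pairs, 18 of them above 0.1. The replicate block, set within each accession, cannot move a change between groups that hold every replicate. The STZ changes therefore stayed as they were (-1.44 in Bay-0 at 1 h), which is no check on them. Fei-0 at 3 h, which lacks a replicate, went from 0.44 to 0.48. With the block no count of calls moved by over 1.5 times, and the call lost was the 0 h level of PUB24 (range 0.97).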
